A study of Mus musculus with 8 samples.

Results

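Eccentric medium spiny neurons are GABAergic projection neurons of the striatum that carry much of the expression programme of medium spiny neurons but differ from the common classes. Most medium spiny neurons are of the direct pathway, marked by the dopamine receptor Drd1, or of the indirect pathway, marked by Drd2. The eccentric class was described from transcriptomes, by genes such as Otof, Casz1 and Col11a1 that both common classes lack. Otof encodes otoferlin, a calcium sensor of membrane fusion in cochlear hair cells, Casz1 a zinc-finger transcription factor and Col11a1 a fibrillar collagen chain.

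Here nuclei were taken as eccentric when they came from the caudate putamen and had at least 500 detected genes. They also needed at least 2 UMIs (unique molecular identifiers, each counting 1 captured RNA molecule) of the GABA-synthesis genes Gad1 and Gad2 together. The last condition was at least 6 UMIs of Otof, Casz1 and Col11a1 together, and at least 2 of these 3 genes at 2 or more UMIs. Of 61767 caudate putamen barcodes with at least 500 genes, 894 met this rule, out of 108519 such barcodes in the whole series. Caudate putamen punches of the left hemisphere came from C57BL/6JN mice aged 3 months (2 libraries) or 21 months (2 libraries), with no other treatment named, and each library pooled nuclei of a male and a female of 1 age. Nuclei were sorted on a DNA dye and not by cell type. The labels do not say which dissection a replicate number stands for, so p-values measure the spread between these libraries.

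The caudate putamen libraries held 141558546 to 214142905 UMIs. The eccentric nuclei numbered 189 and 294 in the young libraries and 197 and 214 in the old ones, with medians of 14281, 15349.5, 14605 and 12140.5 UMIs per nucleus, and their counts summed to between 3133595 and 5096491 UMIs per library. The largest single eccentric barcodes held 47544 and 54414 UMIs in the young libraries and 150530 and 271335 in the old ones. They stayed in the main sums, and whether they hold several nuclei was not tested. Any pair of caudate putamen libraries shared 53 to 93 barcodes, at most 0.630% of the smaller library. Nuclei with Xist and no Y-linked RNA (female) made up 38.4% and 61.2% of the eccentric nuclei that could be sexed in the young libraries, and 68.2% and 59.2% in the old ones.

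The nuclei were chosen by the UMI counts of Otof, Casz1, Col11a1, Gad1 and Gad2, whose levels are given as a description. On the CPM scale (CPM, a gene's UMI count scaled to the total UMIs of the summed nuclei of 1 library), Otof stood at 366 and 335 CPM at 3 months and 286 and 287 CPM at 21 months. Casz1 stood at 231 and 204 CPM at 3 months and 267 and 225 CPM at 21 months, and Col11a1 at 157 and 183 CPM at 3 months and 163 and 174 CPM at 21 months. In D1 and D2 nuclei the highest of these genes' levels in any library was 2.97 CPM, and in nuclei marked as oligodendrocytes (20 or more UMIs of their markers and none of Gad1 and Gad2) 4.92 CPM. The low level in D1 and D2 nuclei was set by their rule, which allowed at most 1 UMI of the 3 genes together. All 3 genes reached 2 UMIs in 357 of the 894 nuclei, Otof and Casz1 alone in 311, Otof and Col11a1 alone in 147, and Casz1 and Col11a1 alone in 79. Among GABAergic nuclei with at least 2 of the 3 genes at 2 or more UMIs, 85 lay just below the threshold, with 4 or 5 UMIs, and 182 just above it, with 6 or 7. Another 197 nuclei reached 6 UMIs but failed the condition on 2 genes and were left out. Adarb2, which the rule did not use, stood at 1527 CPM below and 1869 CPM above it, and Alk at 803 and 1099 CPM. On GRCm38, Otof lies on chromosome 5 (30367062 to 30461932, minus strand), Casz1 on chromosome 4 (148804429 to 148954889, plus strand) and Col11a1 on chromosome 3 (114030540 to 114220718, plus strand).

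For comparison, D1 and D2 nuclei of the same libraries were taken by rule. They held 2 or more Gad1 and Gad2 UMIs, 10 or more UMIs of the medium spiny neuron genes Pde10a, Rgs9, Ppp1r1b and Bcl11b, and at most 1 UMI of the eccentric genes. They also held 3 or more UMIs of Drd1 (for D1) or of Drd2 and the adenosine receptor Adora2a (for D2), at least 4 times those of the other pathway. This gave 2085 D1 and 12899 D2 nuclei. D1 nuclei were deeper, with medians of 14122 to 21111 UMIs per library, against 10825.5 to 16053 UMIs for D2.

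The label was checked against genes of medium spiny neurons. Pde10a, a striatal phosphodiesterase, stood at 4697, 4588, 4447 and 4968 CPM in eccentric nuclei in the order young, young, old, old, and Rgs9, a regulator of G protein signalling, at 1092, 1015, 1000.1 and 1149.5 CPM. Both lay close to the D1 levels of 4317 to 5201 and 1012 to 1202 CPM. The zinc-finger factor Bcl11b was lower, at 373 to 449 CPM against 497 to 646 in D1 and 502 to 629 in D2 nuclei. Ppp1r1b was also lower in each library, at 71.3, 70.5, 45.6 and 44.9 CPM in the same order. D1 nuclei held 81.4, 84.1, 64.6 and 63.1 CPM of it and D2 nuclei 80.0, 81.3, 55.3 and 62.9 CPM. These genes were part of the D1 and D2 rules and were not tested. Markers of excitatory neurons summed to 0.924 to 6.55 CPM in eccentric nuclei, with Slc17a6 at 0. Interneuron markers summed to 26.6, 128, 44.7 and 100.4 CPM, with Vip at 0, against 20.8 to 34.7 CPM in D1 nuclei. Oligodendrocyte markers summed to 160.9, 193.9, 202.4 and 216.1 CPM, which overlapped the ranges of D1 nuclei (186.1 to 224.1 CPM) and D2 nuclei (196.9 to 233.7 CPM). Of the 894 nuclei, 298 held more than 3 UMIs of glial and excitatory markers together and 42 held 10 or more of the oligodendrocyte markers. No doublet caller was run. Tests were therefore repeated with the 582 eccentric nuclei with at most 3 such UMIs and a UMI total under 2 times the median of the eccentric nuclei of their library. The D1 and D2 nuclei set beside them were not filtered in this way.

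When each nucleus was compared with class profiles built from the other libraries, leaving out the genes of the rules and thinning to 6000 UMIs, 858 of 882 eccentric nuclei (97.3%) were nearer the eccentric profile than D1 or D2. Among D1 nuclei 9 of 2073 (0.434%) were, and among D2 nuclei 229 of 12531 (1.83%). Among nuclei with 4 or 5 UMIs of the rule genes that also had 2 of them at 2 or more UMIs, 58 of 64 (90.6%) were nearer the eccentric profile. Among nuclei with 2 or 3 UMIs, for which no condition on 2 genes was set, 304 of 593 (51.3%) were. GABAergic nuclei with at most 1 such UMI were nearer it in 1292 of 19319 cases (6.69%). No interneuron profile was among those compared, so being nearer the eccentric profile does not set a nucleus apart from interneurons.

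The eccentric nuclei differed among themselves in Adarb2, an RNA-editing family gene that the rule did not use. Adarb2 was undetected in 154 nuclei and at 1 to 4 UMIs in 25, while 331 nuclei held 20 to 49 UMIs and 295 held 50 or more. The split at 5 UMIs was chosen after these values were seen, and the values that follow are descriptions with no test. Nuclei with 5 or more Adarb2 UMIs made up 78.8%, 79.3%, 81.2% and 80.8% of the eccentric nuclei in the young, young, old and old libraries (715 in all). A further 155 nuclei had fewer than 5 and no interneuron marking, 20.1%, 17.0%, 17.3% and 15.4% of the total. The last 24 carried 6 or more UMIs of the interneuron genes Sox6, Nxph1 and Lhx6, and 8 and 11 of them came from the second old and second young libraries. Of these 24, 22 were compared with the class profiles, and all 22 were nearer the eccentric profile than D1 or D2. No interneuron profile was compared, and the eccentric profile itself included such nuclei, so this does not set them apart from interneurons. Rgs9 stood in them at 505, 118, 288 and 481 CPM in the order young, young, old, old. All eccentric nuclei held 1000.1 to 1149.5 CPM of it. Casz1 stood at 264, 11.3, 105 and 6.87 CPM in the same order, and Col11a1 at 168 to 393 CPM. All 24 stayed in the main sums.

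**Figure D1:**
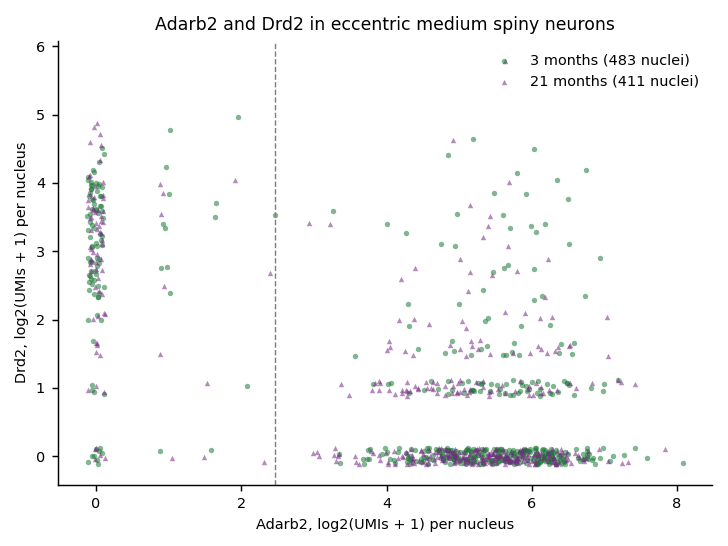
UMIs of Adarb2 (horizontal axis) and of Drd2 (vertical axis) per eccentric nucleus, both as log2(UMIs + 1) with a small jitter; circles are nuclei at 3 months, triangles at 21 months, and the dashed line marks 5 Adarb2 UMIs. Nuclei without Adarb2 mostly hold Drd2, with a median of 8 UMIs at 0 Adarb2 UMIs, and nuclei with 5 or more mostly hold none.

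The kinds differed in the levels of dopamine receptors. Drd2 stood at 564 and 631 CPM at 3 months and 655 and 674 CPM at 21 months in Adarb2-low nuclei. It stood at 67.2 and 62.7 CPM at 3 months and 42.5 and 90.0 CPM at 21 months in Adarb2-high nuclei and at 583 ± 49.8 CPM (SD, n = 4 libraries) in D2 nuclei. Adora2a stood at 85.4 to 138 CPM against 13.8 to 23.5 CPM. Drd1 stood at 6.64, 13.8, 3.80 and 21.1 CPM in the Adarb2-low and 71.2, 78.1, 80.2 and 81.2 CPM in the Adarb2-high nuclei. Drd1 was at 199 ± 30.8 CPM in D1 nuclei and at 38.9 ± 6.23 CPM in nuclei marked as oligodendrocytes. In the oligodendrocyte nuclei Drd2 stood at 22.2 to 43.9 CPM and Adora2a at 21.7 to 35.2 CPM. Both ranges overlap those of the Adarb2-high nuclei, and the part of free RNA in these levels was not tested. The levels in D1 and D2 nuclei are set in part by the receptor UMIs those rules ask for, and the oligodendrocyte nuclei were shallower, with medians of 3384 to 3963 UMIs, so the levels are given side by side with no test.

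Of 6156 genes with a mean of 20 CPM or more in either kind, 50 were at least 4 times higher, after adding 1 CPM to each level, in Adarb2-high than Adarb2-low nuclei in each of the 4 libraries, and 17 at least 4 times lower. The 50 include Adarb2, on which the split was made, and the rule gene Col11a1. Erbb4, a neuregulin receptor, stood at 1937 ± 343 CPM against 54.3 ± 33.0 CPM, and Tox, an HMG-box factor, at 189 ± 19.2 CPM against 5.77 ± 7.16 CPM (n = 4 libraries each). Drd3, a dopamine receptor of the D2 family, stood at 38.4 CPM in the Adarb2-high nuclei and had no UMI in the Adarb2-low ones. Tacr1, the substance P receptor, stood at 91.6 ± 20.3 CPM against 1.80 ± 2.26 CPM. On the other side, Htr7, a serotonin receptor, stood at 167 ± 43.6 CPM in Adarb2-low and 6.72 ± 1.85 CPM in Adarb2-high nuclei. Htr2a, another serotonin receptor, stood at 139 ± 20.3 CPM against 15.3 ± 1.80 CPM. Grik3, a kainate receptor subunit, stood at 281 ± 65.5 CPM against 30.8 ± 10.6 CPM. Col11a1, one of the rule genes, stood at only 16.4 to 40.1 CPM in Adarb2-low nuclei, while Otof stood at 292 to 351 CPM.

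Between eccentric and D1 and D2 nuclei of the same library, with the genes of all 3 rules left out, edgeR's quasi-likelihood test with library as a block called 5398 of 14736 genes (36.6%) at a Benjamini-Hochberg adjusted p under 0.05. Of these, 2613 (17.7% of genes tested) were higher in eccentric nuclei than the mean of D1 and D2 and 2785 (18.9%) lower. Against D1 alone 5098 genes (34.6%) were called, 2419 (16.4%) higher and 2679 (18.2%) lower. Against D2 alone 5216 genes (35.4%) were called, 2516 (17.1%) higher and 2700 (18.3%) lower. Depth-matched D1 and D2 nuclei gave 4003 calls, and the 582 eccentric nuclei with few glial UMIs 5036, against D1 and D2 nuclei without that filter.

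Ankfn1, a gene with ankyrin and fibronectin domains, stood at 369.9 and 279 CPM at 3 months and 322 and 269.7 CPM at 21 months, and at 0.865 to 2.82 CPM in D1 and 0.703 to 2.47 CPM in D2 nuclei. In edgeR's test its values were log2 fold change 7.73, SE 0.16, adjusted p = 1.88e-08. The receptor tyrosine kinase Alk stood at 1176 and 1127 CPM at 3 months and 1234 and 976 CPM at 21 months, against 6.39 to 8.71 CPM in D1 and 45.5 to 79.8 CPM in D2 nuclei (log2 fold change 5.62, SE 0.15, adjusted p = 1.95e-07). For both genes every eccentric library lay above every D1 and D2 library.

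The protocadherin Pcdh15, known for the tip links of hair cells, stood at 1844 and 1843 CPM at 3 months and 1857 and 1446 CPM at 21 months, and at 27.8 to 40.1 and 50.6 to 76.5 CPM in D1 and D2 nuclei (log2 fold change 5.31, SE 0.10, adjusted p = 5.24e-09). The noncoding gene Gm15398 lies on the opposite strand within Pcdh15 (chromosome 10, 73201399 to 73327175), and since the counting of strand is not given in the sources used here, the 2 genes' UMIs could not be told apart with certainty. Adarb2 itself stood at 2495 and 2409 CPM at 3 months and 2758 and 1935 CPM at 21 months and at 85.9 to 189.6 CPM in D1 nuclei (log2 fold change 5.36, SE 0.27, adjusted p = 6.34e-06). Restricted to Adarb2-low nuclei, Adarb2 was lower by construction, at a log2 fold change of -2.34 (adjusted p = 0.326, edgeR). Ntn4, a netrin, stood at 34.2 to 47.1 CPM against 0.595 to 1.03 CPM in D2 nuclei (log2 fold change 5.87, SE 0.16, adjusted p = 1.34e-17). In Adarb2-low nuclei Ntn4 stood at 0 to 3.76 CPM, and B020031H02Rik and Igfbpl1, 2 further genes of large increase, had no UMI there. The collagen Col27a1 stood at 28.2 to 32.9 CPM against 0.608 to 1.10 CPM in D1 nuclei (log2 fold change 4.98, SE 0.15, adjusted p = 1.21e-17). Sez6l, a seizure-related transmembrane protein, stood at 70.2 to 97.3 CPM against 2.58 to 4.24 CPM in D2 nuclei. The remaining genes with the largest increases were Gm40663, B020031H02Rik, Igfbpl1, Mdfic and Aox4, with log2 fold changes from 5.17 to 6.26. In Adarb2-low nuclei Mdfic was not called (log2 fold change 1.27, adjusted p = 0.241, edgeR), at 1.66 to 4.68 CPM against 40.6 to 56.3 CPM in Adarb2-high nuclei. Of the 194 UMIs of B020031H02Rik in eccentric nuclei, 57 came from the 24 interneuron-marked ones.

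Among the largest decreases, the extracellular matrix protein Reln stood at 84.3 and 109.8 CPM at 3 months and 87.8 and 196 CPM at 21 months, against 719.6 to 921 CPM in D1 and 475 to 617 CPM in D2 nuclei (log2 fold change -2.56, SE 0.23, adjusted p = 1.34e-04). Thsd7a, a thrombospondin-domain protein, stood at 143 and 150.3 CPM at 3 months and 136 and 269 CPM at 21 months against 855 to 1049 CPM in D1 nuclei (log2 fold change -2.62, SE 0.18, adjusted p = 3.23e-05). The kinase Stk32a stood at 32.9 and 32.9 CPM at 3 months and 32.3 and 50.8 CPM at 21 months against 229.5 to 249 CPM (log2 fold change -2.76, SE 0.11, adjusted p = 1.01e-07). The synaptic vesicle protein Sv2b stood at 24.1 and 24.5 CPM at 3 months and 15.7 and 48.3 CPM at 21 months against 162 to 175 CPM (log2 fold change -2.59, SE 0.21, adjusted p = 7.10e-05). For all 4 genes the second old library was the highest of the eccentric libraries and still below each D1 and D2 library. That library also holds the eccentric barcode of 271335 UMIs, whose part in these levels was not tested. The other genes of this group were Lncbate1, Gm10475 (antisense within Reln), 1700095A13Rik, Gm44129 (within Thsd7a), Spata16 and A830092H15Rik, at log2 fold changes from -2.92 to -2.58.

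**Figure D2:**
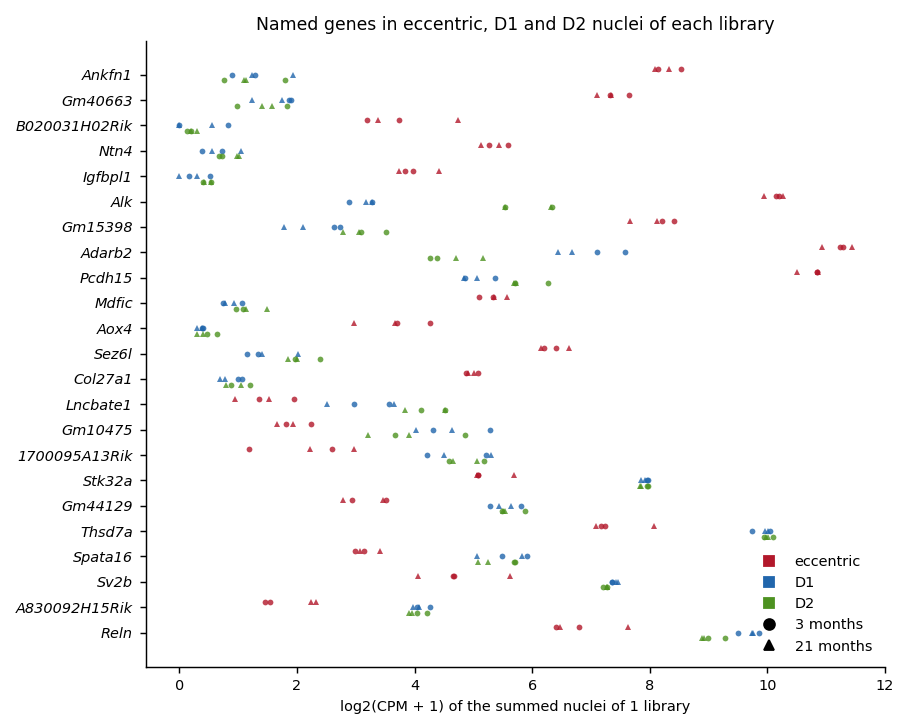
Levels of the named genes in the summed eccentric, D1 and D2 nuclei of each library, as log2(CPM + 1), with circles at 3 and triangles at 21 months. The genes from Ankfn1 to Col27a1 lie to the right in eccentric nuclei and those below them to the left of both other classes, for example Ankfn1 at 269.7 to 369.9 CPM.

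Dopamine signalling was mostly lower. Of 11 genes of that list tested, 1 was higher, 8 lower and 2 not called (median log2 fold change -0.32, against 0.00 over all genes tested, of which 17.7% were called higher and 18.9% lower). The one higher was Drd3, at 35.5 and 24.0 CPM at 3 months and 34.5 and 30.9 CPM at 21 months (log2 fold change 1.51, SE 0.31, adjusted p = 0.00892), where D1 nuclei held 8.84 to 29.8 CPM. Prkcb, a protein kinase C, was the most reduced, at 660.2 ± 80.1 CPM against 1593 ± 44.1 CPM in D1 nuclei (log2 fold change -1.31, SE 0.06, adjusted p = 1.91e-09, n = 4 libraries). The identity genes of medium spiny neurons followed, with 4 higher, 10 lower and 2 not called of 16. The transcription factors Foxp1 and Rarb stood at log2 fold changes of -0.98 and -0.79. The substance P precursor Tac1 stood higher than the mean of D1 and D2, at 178 and 226 CPM at 3 months and 156 and 148 CPM at 21 months (log2 fold change 1.91, SE 0.13, adjusted p = 2.08e-05). Tac1 is a marker of D1 nuclei, so this value does not give its excess over D1 alone. The 5 D1 markers, Tac1 and Drd1 among them, summed to 303 to 386 CPM in D1 and 39.5 to 60.9 CPM in D2 nuclei. In eccentric nuclei they summed to 232 to 301 CPM.

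Transcription factors split in both directions, 12 higher and 11 lower of 30 tested, against 17.7% and 18.9% of all genes tested. Tox stood at 162 and 179 CPM at 3 months and 177 and 209.8 CPM at 21 months, with 452 of 2682 UMIs from the 24 interneuron-marked nuclei, and at 3.65 to 12.2 CPM in D1 nuclei (log2 fold change 4.82, SE 0.21, adjusted p = 2.75e-06). Tshz1, a zinc-finger homeodomain factor, stood at 232 to 292 against 30.8 to 40.0 CPM (log2 fold change 2.84, SE 0.06, adjusted p = 1.58e-15). Foxp2, a forkhead factor, stood at 1927 to 2382 against 725 to 813 CPM in D1 and 265 to 348 in D2 nuclei (log2 fold change 2.11, SE 0.08, adjusted p = 1.99e-07). In Adarb2-low nuclei Tox stood at 1.25 to 16.4 CPM and Foxp2 at 297 to 629 CPM, within or near the levels of D1 and D2 nuclei. Zfhx3 was lower (log2 fold change -2.38, SE 0.08, adjusted p = 2.28e-10). Ebf1, a factor of the direct pathway, stood at 20.6 to 34.6 CPM against 309.5 to 412 in D1 and 26.7 to 37.2 in D2 nuclei, at a log2 fold change of -2.10 against the mean of both.

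The substance P receptor Tacr1 stood at 95.3 and 135 CPM at 3 months and 103 and 132 CPM at 21 months, against 2.47 to 7.06 CPM in D1 nuclei (log2 fold change 3.90, SE 0.27, adjusted p = 3.59e-05). Of its 1748 UMIs in eccentric nuclei, 679 came from the 24 interneuron-marked nuclei, most of which lie in the second young and second old libraries, where Tacr1 was highest. In Adarb2-high nuclei it stood at 107, 70.4, 110.4 and 78.2 CPM in the order young, young, old, old, and in Adarb2-low nuclei at 0 to 4.68 CPM. The corticotropin-releasing hormone receptor Crhr1 was also higher (log2 fold change 1.81, SE 0.18, adjusted p = 1.56e-05). Of 20 tested genes of neuropeptides and their receptors, 9 were higher and 3 lower, where 17.7% and 18.9% of all genes tested were. Serotonin and acetylcholine receptors gave 7 higher and 3 lower of 15, with Htr7 at a log2 fold change of 4.78 and Htr2c at -1.92. Htr7 stood at 139 to 232 CPM in Adarb2-low and 4.93 to 9.32 CPM in Adarb2-high nuclei, against 3.64 to 5.67 CPM in D2 nuclei. All 7 metabotropic glutamate receptors were tested: 5 were lower, among them Grm5 (log2 fold change -0.97, SE 0.04, adjusted p = 1.76e-15), and 1 was higher.

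Among 17 ionotropic glutamate receptors 5 were higher, 8 lower and 4 not called, against 17.7% higher and 18.9% lower of all genes tested. The kainate receptor subunit Grik4 stood at 156 and 137 CPM at 3 months and 191 and 152 CPM at 21 months (log2 fold change 3.42, SE 0.22, adjusted p = 2.14e-05). The NMDA receptor subunit Grin2a stood at 1964 to 2161 against 879 to 1075 CPM in D1 nuclei (log2 fold change 1.08, SE 0.04, adjusted p = 1.28e-12), and Grin2b, its fellow subunit, was lower (log2 fold change -0.52, SE 0.03, adjusted p = 6.70e-12). GABA receptor genes gave 4 higher and 9 lower of 14, led by Gabra3 at 109 and 104 CPM at 3 months and 119.8 and 70.1 CPM at 21 months against 2.09 to 4.94 CPM in D1 and 17.8 to 24.9 in D2 nuclei (log2 fold change 3.60, SE 0.14, adjusted p = 2.41e-08).

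Ion channels were about evenly split. Of 32 potassium channel genes tested, 13 were higher and 16 lower (90.6% called, against 36.6% of all genes tested, median log2 fold change -0.28). Kcnk9, a leak channel, stood at 16.8 and 21.0 CPM at 3 months and 9.86 and 16.8 CPM at 21 months against 0.152 to 0.550 CPM in D1 nuclei (log2 fold change 4.68, SE 0.19, adjusted p = 2.91e-15). Kcnj3, a G protein-gated inward rectifier, was higher (log2 fold change 3.19, SE 0.19, adjusted p = 1.51e-05), and Kcnh7, an ether-a-go-go related channel, was lower (log2 fold change -2.28, SE 0.11, adjusted p = 9.30e-07). Of 29 sodium and calcium channel genes, 10 were higher and 11 lower. Cacna2d3, a calcium channel accessory subunit, was lower (log2 fold change -1.09, SE 0.04, adjusted p = 8.19e-17). Cacng5, an AMPA receptor accessory gene of the eccentric list, stood at 57.0 and 56.9 CPM at 3 months and 54.8 and 38.0 CPM at 21 months (log2 fold change 4.59, SE 0.13, adjusted p = 1.28e-16).

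Genes of adhesion and guidance gave 27 higher and 25 lower of 57. Sema5b, a semaphorin, stood at 568 and 564 CPM at 3 months and 529.8 and 577 CPM at 21 months against 55.6 to 86.6 CPM in D1 nuclei (log2 fold change 3.18, SE 0.07, adjusted p = 1.88e-10). Unc5d, a netrin receptor, was higher (log2 fold change 3.60, SE 0.26, adjusted p = 4.64e-05), and the ephrin Efna5 was lower (log2 fold change -2.22, SE 0.08, adjusted p = 7.44e-11). Of 23 genes of the otoferlin family and exocytosis 9 were higher and 10 lower, and among those called only Syt10 passed 1 log2 unit (log2 fold change -2.01, SE 0.13, adjusted p = 3.11e-11). Heat shock genes gave 1 higher and 6 lower of 25, and splicing genes 3 higher and 2 lower of 26, which is 28% and 19.2% called, against 36.6% of all genes tested.

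**Figure D3:**
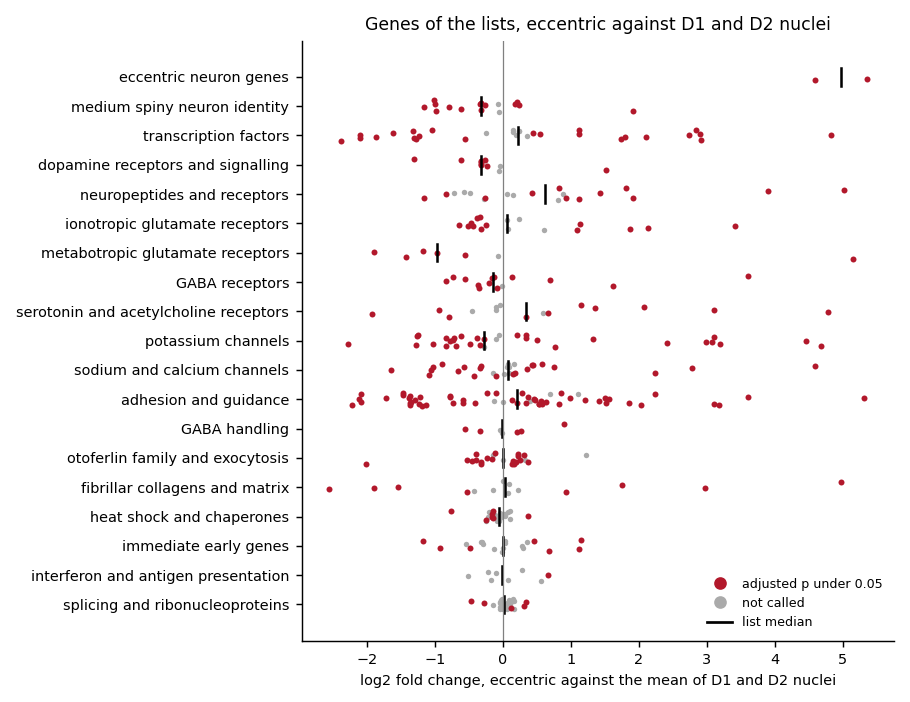
Log2 fold changes of the genes of each list between eccentric nuclei and the mean of D1 and D2 nuclei, with red points called at an adjusted p under 0.05, grey points not called and a black line at the list median. Receptor, channel and adhesion lists spread to both sides of 0, while splicing genes stay near it.

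With age, few genes passed the test in eccentric nuclei. Between 21 and 3 months edgeR called 6 of 12207 genes (0.0492%), 4 higher (0.0328%) and 2 lower (0.0164%), where 1475 had an unadjusted p under 0.05. On the same 12207 genes DESeq2 called 7, of which 5 were among these 6, and 387 had an unadjusted p under 0.05. D2 nuclei gave 932 calls of 17984 genes, and D1 nuclei 82 of 14289. With as many D2 or D1 nuclei as eccentric ones, matched on UMI total, D2 gave 77 and D1 10 calls. No difference between these counts was tested.

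Atxn2l, an RNA-binding relative of ataxin 2, was lower, at 56.4 and 51.6 CPM at 3 months and 24.6 and 22.4 CPM at 21 months (log2 fold change -1.20, SE 0.14, adjusted p = 0.0270, edgeR). The splicing factor Srsf5 was lower as well, at 127 and 128 CPM at 3 months and 79.2 and 68.0 CPM at 21 months (log2 fold change -0.80, SE 0.11, adjusted p = 0.0348, edgeR). For both genes each old library lay below each young one. In the 582 nuclei with few glial UMIs the values were 55.8, 53.7, 24.3 and 20.8 CPM and 138, 128, 81.7 and 70.4 CPM in the same order, and both calls held. D1 and D2 nuclei gave close values for Atxn2l, with log2 fold changes of -1.22 and -1.10.

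The higher genes were Lrmda, Zeb2, Prr5l and Rnf220. Zeb2, a transcription factor that oligodendrocytes use, stood at 20.6 and 31.3 CPM at 3 months and 73.6 and 65.2 CPM at 21 months (log2 fold change 1.37, SE 0.18, adjusted p = 0.0348, edgeR). Prr5l, an mTORC2 component, stood at 27.9 and 31.0 CPM at 3 months and 54.8 and 66.4 CPM at 21 months (log2 fold change 1.03, SE 0.15, adjusted p = 0.0455, edgeR). In all 4 genes each old library lay above each young one. Rnf220, a ubiquitin ligase, stood at 39.3 and 41.7 CPM at 3 months and 81.6 and 80.7 CPM at 21 months (log2 fold change 0.99, SE 0.12, adjusted p = 0.0270, edgeR), and Lrmda at 4.43 and 6.62 CPM at 3 months and 22.5 and 19.6 CPM at 21 months (log2 fold change 1.87, SE 0.25, adjusted p = 0.0348, edgeR). Nuclei marked as oligodendrocytes carried 2252 to 2657 CPM of Zeb2, 2610.2 to 3313 of Prr5l, 2386 to 3172 of Rnf220 and 228 to 531 of Lrmda, all above every eccentric library. The oligodendrocyte markers of the eccentric nuclei summed to 160.9 and 193.9 CPM at 3 months and 202.4 and 216.1 CPM at 21 months, and astrocyte markers to 26.9, 10.9, 52.1 and 25.3 CPM in the same order. The part of either in these 4 results was not tested. In nuclei with few glial UMIs the oligodendrocyte markers summed to 71.8, 76.3, 78.8 and 74.1 CPM and the astrocyte markers to 2.68 to 8.92 CPM. There Zeb2 stood at 5.13, 4.22, 6.94 and 25.7 CPM, Prr5l at 3.42, 3.83, 5.95 and 8.57 CPM, Rnf220 at 27.3, 21.9, 25.3 and 33.1 CPM and Lrmda at 2.85, 3.07, 10.4 and 7.35 CPM, and none of the 4 was called (adjusted p from 0.281 to 0.798, edgeR). In these nuclei edgeR called 5 genes: Atxn2l, Srsf5, Stxbp2, Pde1c and Cdh18, the last 3 named after their values were seen.

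**Figure D4:**
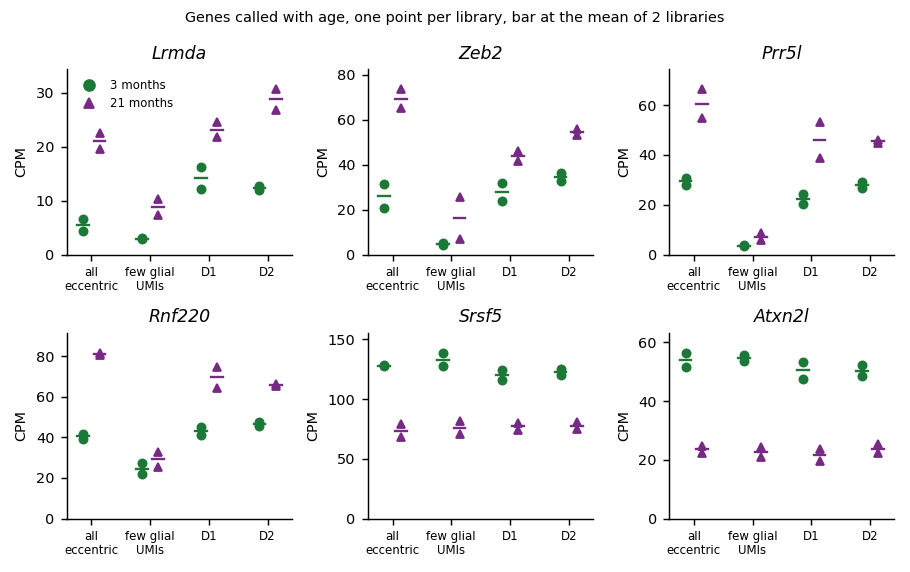
CPM of the 6 genes called with age, per library, in all eccentric nuclei, in those with few glial UMIs, and in D1 and D2 nuclei, with a bar at the mean of 2 libraries. Srsf5 and Atxn2l keep their drop in each set, while Zeb2, Prr5l, Rnf220 and Lrmda lie lower in the nuclei with few glial UMIs.

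Of the gene lists, 1 of 26 transcription factors (Zeb2) and 1 of 26 splicing genes (Srsf5) were called, against 0.0492% of all genes tested, and no other list held a called gene. Ppp1r1b, the dopamine-regulated phosphatase inhibitor DARPP-32, stood at 71.3 and 70.5 CPM at 3 months and 45.6 and 44.9 CPM at 21 months (log2 fold change -0.65, adjusted p = 0.0758, edgeR). It was called lower with age in D2 nuclei (log2 fold change -0.47, adjusted p = 0.0207, edgeR) and not called in D1 nuclei (-0.38, adjusted p = 0.112, edgeR). Nuclei marked as oligodendrocytes held 69.7, 73.3, 33.1 and 44.1 CPM in the order young, young, old, old, at medians of 3384 to 3963 UMIs per nucleus, against 12140.5 to 15349.5 for eccentric nuclei. The part of free RNA in the eccentric Ppp1r1b levels was not tested. Heat shock genes had a median log2 fold change of -0.32 and immediate early genes of -0.28, against 0.00 over all genes tested, with no member of either list called. Without the second old library Prr5l was not called (adjusted p = 0.0615, edgeR). Without single libraries in turn edgeR called 19 to 75 genes, against 6 with all 4. Sums of the sexed nuclei of each animal, with sex as a covariate, gave 4 calls, among them Atxn2l. The male and female sums of a library entered that test as separate samples, with no term for library. Age differs only between libraries, so that test does not measure the spread between libraries. The 205 nuclei that met the rule after thinning to 6000 UMIs gave 0 (447 genes at an unadjusted p under 0.05, edgeR).

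Age effects that differed between eccentric nuclei and the mean of D1 and D2 were called for 27 of 15538 genes (0.174%), 13 (0.0837%) more positive in eccentric nuclei and 14 (0.0901%) more negative. Of the same 15538 genes, 7 were called against D1 alone and 17 against D2 alone. Slc24a3, a sodium, potassium and calcium exchanger, fell in D1 nuclei from 104 ± 9.79 to 37.9 ± 8.64 CPM and in D2 nuclei from 84.5 ± 5.44 to 29.6 ± 1.94 CPM (SD, n = 2 libraries per age). Eccentric nuclei held 141 and 161 CPM at 3 months and 128 and 119 CPM at 21 months, where 324 of 2068 UMIs came from the 24 interneuron-marked nuclei, and Adarb2-high nuclei held 121, 121, 104 and 85.8 CPM. The difference of age effects was 1.19 (SE 0.13, adjusted p = 0.00468, edgeR). The RNA-binding splicing regulator Rbm20, named after its values were seen, held 197 and 219 CPM at 3 months and 177 and 229 CPM at 21 months in eccentric nuclei, against 4.18, 6.80, 12.9 and 17.8 CPM in D1 and 4.43, 6.05, 8.97 and 12.1 CPM in D2 nuclei in the order young, young, old, old (difference -1.25, adjusted p = 1.77e-05, edgeR). Within eccentric nuclei alone neither gene was called with age (adjusted p = 0.286 for Slc24a3 and 0.916 for Rbm20, edgeR), and Rbm20 was not called within D1 nuclei either (adjusted p = 0.0563, edgeR).

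Unc5c, a netrin receptor, held 1067 and 963 CPM at 3 months and 898 and 962 CPM at 21 months in eccentric nuclei and 203, 214, 285 and 309 CPM in D1 nuclei and 439, 477, 527 and 574 CPM in D2 nuclei in the same order (difference -0.52, adjusted p = 0.00658, edgeR). Against D2 alone it was not called (-0.39, adjusted p = 0.139, edgeR). The noncoding gene Gm49906 stood at 303 and 336 CPM at 3 months and 475 and 398 CPM at 21 months in eccentric and 157, 182, 356 and 323 CPM in D2 nuclei (difference -0.55, adjusted p = 0.00468, edgeR). The cannabinoid receptor Cnr1 stood at 254 and 371 CPM at 3 months and 185 and 241 CPM at 21 months in eccentric nuclei and 168, 276, 176 and 253 CPM in D1 nuclei and 152, 236, 129.6 and 197 CPM in D2 nuclei (difference -0.40, adjusted p = 0.0401, edgeR). Against D2 alone it was not called (-0.29, adjusted p = 0.414, edgeR). Low levels limit Hs3st2 and Egfr, at most 11.5 CPM in any eccentric library, whose differences of 2.27 and 2.16 rest on 90 and 92 UMIs of eccentric nuclei. With the 582 nuclei of few glial UMIs, 23 genes were called, 13 of them among the 27, and 10 of the 17 genes shown in the plot of age effects were not called, all with the direction they had before. Among these 10, the difference with these fewer nuclei was 1.14 for Zeb2, 1.61 for Hs3st2 and 2.95 for Egfr, against 0.74, 2.27 and 2.16 with all. The D1 and D2 nuclei were not filtered on glial UMIs here. Zeb2 in the filtered eccentric nuclei was highest in the second old library. Without the second old library 1 gene, Slc24a3, stayed called, and against depth-matched D1 and D2 nuclei 7 genes were (Rbm20, Unc5c, Zeb2, Arhgap6, Gm49906, Gm28494 and Sema3a).

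**Figure D5:**
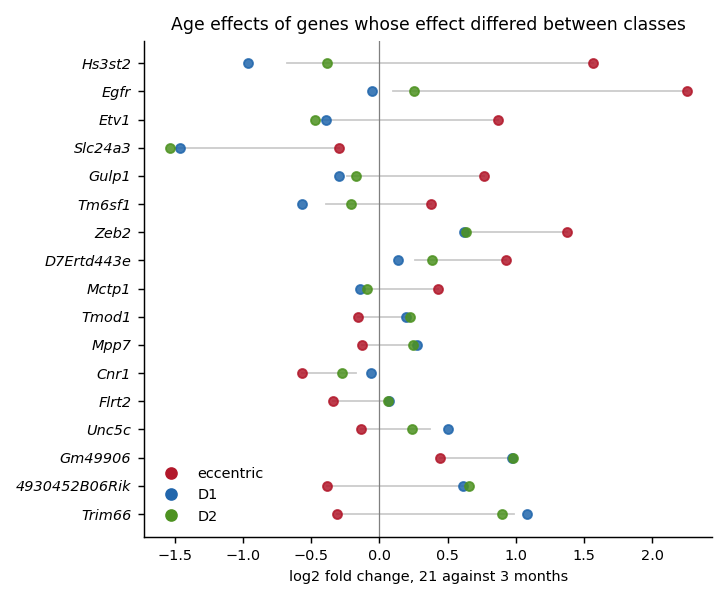
Log2 fold changes between 21 and 3 months of 17 genes in eccentric (red), D1 (blue) and D2 (green) nuclei, with a grey line from the eccentric value to the mean of the other classes. Slc24a3 lies at -0.30 in eccentric nuclei and at -1.46 and -1.54 in D1 and D2 nuclei.

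Eccentric nuclei made up 2.61% and 2.82% of GABAergic barcodes at 3 months and 2.70% and 2.25% at 21 months. The means were 2.71% ± 0.147 and 2.47% ± 0.321 (SD, n = 2 libraries each), and an exact two-sided permutation test gave p = 0.667, where 0.333 is the smallest that 2 libraries against 2 allow. The rule counts UMIs, and the second old library had the lowest depth. Thinning every barcode to 6000 UMIs left out 12 eccentric nuclei below that depth, and 205 nuclei (54, 57, 44 and 50) met the rule afterwards. The shares were 1.23%, 0.933%, 0.972% and 0.844% (exact permutation p = 0.667). By whole profile at 6000 UMIs, 14.3%, 11.3%, 13.7% and 10.0% of GABAergic barcodes were nearer the eccentric profile than D1 or D2, a wider class that also takes in nuclei with at most 1 UMI of the rule genes (exact permutation p = 0.667). It may hold interneurons, since no interneuron profile was compared. With the stricter rule (10 or more UMIs and all 3 genes at 2 or more) the shares were 0.897%, 0.996%, 0.836% and 0.609%. Of all barcodes with at least 500 genes, eccentric nuclei made up 1.53%, 1.82%, 1.35% and 1.15%. In both, each old library lay below each young one (exact permutation p = 0.333, the smallest possible). A difference with age was not detectable with 2 libraries per age.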

How the data were processed

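Single nuclei were profiled with 10x chemistry from 8 libraries, of which the 4 of the caudate putamen were used. The deposited values are raw UMI counts per gene and barcode, made with Cell Ranger 4.0.0 per the submitters' processing notes, while the file headers name 6.1.2 for 7 libraries and 7.0.0 for 1, the second young caudate putamen library. Whether intronic reads were counted alike in all libraries is not given in the sources used here, and a difference would move CPM values of that library against the others. The labels name the mm10 build. The members and gene lists were chosen with earlier results of these data known.

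Counts were summed per library and class. edgeR 4.0.16 (R 4.3.3; TMM, filterByExpr, robust quasi-likelihood) compared 21 with 3 months over 4 sums, and the classes and the difference of age effects over 12 sums with library as a block. The 12 genes of the rules were left out of the class tests, and p-values were adjusted by Benjamini-Hochberg over all genes tested. Named genes are the 14 largest increases and 10 largest decreases called with 10 CPM or more in the higher class and eccentric nuclei above, or below, both other classes in all 4 libraries, up to 10 per direction for age, where both old libraries lay on one side of both young ones, and list members as examples. A few genes that these rules name are not reported here. The edgeR script was tested on simulated data. Alternatives were DESeq2 1.42.0, its size factors, no filter, other member rules, depth-matched comparators, per-animal sums and leaving out each library. Eccentric sums of 3133595 to 5096491 UMIs per library limit precision for genes at low CPM.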

Additional observations from a re-analysis of the deposited data

Results flagged for a closer look

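Of the 27 genes called for a difference of age effects, 17 are given here, those whose 2 old eccentric libraries lay on one side of both young ones; the rule leaves out the smallest p, that of Rbm20. For these 17 genes the change between 3 and 21 months in eccentric nuclei differed from the mean change in D1 and D2 nuclei of the same libraries, by edgeR's test of the difference itself. Egfr, Tm6sf1, D7Ertd443e, Mctp1, Flrt2, Mpp7 and Tmod1 were called neither against D1 alone nor against D2 alone (adjusted p from 0.0561 to 0.221, edgeR). The eccentric value was the more positive, on the log2 scale, by 2.27 for Hs3st2, 2.16 for Egfr, 1.27 for the ETS factor Etv1, 1.19 for Slc24a3, 1.01 for Gulp1, 0.76 for Tm6sf1, 0.74 for Zeb2, 0.67 for D7Ertd443e and 0.54 for Mctp1. It was the more negative for the other 8. The differences were -1.33 for Trim66, -1.02 for 4930452B06Rik, -0.55 for Gm49906, -0.515 for Unc5c, -0.41 for Flrt2, -0.40 for Cnr1, -0.40 for Mpp7 and -0.375 for Tmod1. With the 582 eccentric nuclei of few glial UMIs, 10 of the 17 were not called, namely Hs3st2, Egfr, Etv1, Gulp1, Zeb2, D7Ertd443e, Mctp1, 4930452B06Rik, Flrt2 and Tmod1 (adjusted p from 0.103 to 0.861, edgeR). All 10 had the same direction there, for example 1.14 for Zeb2, 1.09 for Etv1, 0.55 for D7Ertd443e and -0.35 for Tmod1, and 0.25 for Mctp1. The D1 and D2 nuclei of that comparison were not filtered on glial UMIs. With DESeq2 and all eccentric nuclei, 10 of the 17 were called and 7 were not, all with the same direction. Zeb2 stood at 2252 to 2657 CPM in nuclei marked as oligodendrocytes, whose part in its difference was not tested.

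Outside the caudate putamen, 4 hippocampal barcodes met the same marker thresholds, all of them in the second young hippocampal library. These libraries entered no comparison.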

How the results depend on the processing

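The 6 age calls in eccentric nuclei became 368 with no filter on low counts, 36 with the stricter rule, 28 in nuclei with 5 or more Adarb2 UMIs (added after seeing the data) and 0 when the rule was applied after thinning. The calls numbered 19 to 75 without single libraries, namely 75 and 39 without the first and second young and 48 and 19 without the first and second old library. With the replicate number as a block (replicate block) 0 genes were called, and 1664 had an unadjusted p under 0.05. The labels do not tie the numbers to shared animals or days, and replicate differences at the 2 ages correlated at 0.171 across 12207 genes, which are not independent replicates. DESeq2 called 7 genes with age, 5 of them among the 6, with 387 genes at an unadjusted p under 0.05. For differences of age effects it called 23, of which 19 were among the 27. There 563 genes had an unadjusted p under 0.05, against 1176 with edgeR. The 27 differences of age effects became 138 with no filter, 98 with the stricter rule, 7 with depth-matched nuclei, and 1 to 46 without single libraries, with 1 without the second old and 46 without the first old library. The 5398 class calls became 2975 in the 155 Adarb2-low nuclei (added after seeing the data), which are fewer nuclei, and Adarb2 there stood at -2.34 by the way they were chosen. Other causes were not tested. The share's difference with age kept its direction, from -0.466 to -0.0117 percentage points without single libraries.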

Other observations

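Some genes differed between replicates of both ages in the same direction. Syt10, a synaptotagmin, stood at 53.5 and 49.6 CPM in D1 nuclei of the first young and first old library, and at 19.7 and 17.3 CPM in the second ones. It was chosen after its values were seen.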
